A study of Mus musculus with 6 samples.

Results

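The mRNAs described here are those of Eogt, of the Notch receptors Notch1, Notch2 and Notch3, of their ligands Dll1 and Jag1, and of 4 other enzymes that place or extend sugars on Notch, namely Lfng, Mfng, Rfng and Pofut1. These 10 genes are 10 of the 43383 rows of the expression table and were taken by symbol, and the set was chosen by measured values, namely the upper-layer and deep-layer RPKM of these same libraries. Differences between the layers in these 10 genes are therefore given as a description, with no test. The libraries came from GFP-positive astrocytes that were sorted from somatosensory cortex. The animals were Aldh1l1-eGFP males that were 4 weeks old, from a reporter line in which the promoter of Aldh1l1, an astrocyte enzyme of folate metabolism, drives GFP. Upper-layer astrocytes (ULAs) and deep-layer astrocytes (DLAs) were sorted from separately dissected tissue of the same 3 brains, 1 library per layer and brain, and both groups share genotype, age and sex. Neither group covers the whole depth of the cortex, since the tissue had been stripped of its outermost layer and part of the border zone of layers IV and V is missing. Meninges and callosal white matter had been discarded.

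Notch receptors are single-pass membrane proteins whose outer part is a long row of EGF-like repeats. When a ligand on a neighbouring cell pulls on the receptor, ADAM proteases and then the γ-secretase complex cut it, and the freed inner part joins the DNA-binding protein RBPJ to switch on genes of the Hes and Hey families. The EGF repeats carry O-linked sugars: Pofut1 adds fucose, the Fringe enzymes Lfng, Mfng and Rfng extend that fucose with GlcNAc and so change which ligands the receptor answers to, and Eogt adds a single GlcNAc directly to the repeat. Notch signalling is known for its part in the formation of astrocytes from neural progenitors.

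The libraries held 19.7 to 29.6 M reads, as read back from the steps of the RPKM values, a measure of reads per length of mRNA and per size of the library. The summed RPKM of 8 astrocyte markers was 11054.8 to 11982.2 in ULAs and 10419.5 to 11202.5 in DLAs. The defining markers of other cells were low beside these. For 8 genes of pericytes and smooth muscle cells the sum was 16.1 to 23.1 RPKM in ULAs and 12.01 to 19.1 RPKM in DLAs, mostly from Pdgfrb, and Abcc9 was at 0 in all 6 libraries. Endothelial genes other than Slco1c1, a transporter that the sorted cells also held at a high level, summed to 1.45 to 2.06 RPKM in ULAs and 0.910 to 3.10 RPKM in DLAs. Neuronal genes summed to at most 7.29 RPKM. Microglial genes summed to 12.95 to 13.8 RPKM in ULAs and 8.63 to 11.74 RPKM in DLAs, mostly from P2ry12. Without P2ry12 they summed to 1.22 to 1.35 RPKM in ULAs and 0.87 to 1.52 RPKM in DLAs. Genes of oligodendrocyte precursors summed to 5.43 to 6.19 RPKM in ULAs and 6.45 to 19.9 RPKM in DLAs, mostly from Olig2. Oligodendrocyte genes were the exception, at 86.6 to 175.3 RPKM in ULAs and 174.4 to 272.5 RPKM in DLAs, and 5 of these 7 genes passed the layer test as higher in DLAs (limma, adjusted p under 0.05). The part of these cells in the levels below was not tested. In sorted bulk samples, fewer cells holding an mRNA and less of it per cell cannot be told apart.

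The 10 mRNAs fell into 3 ranges of level. Over the 6 libraries the mean RPKM was 83.8 for Eogt, 64.4 for Lfng and 44.8 for Rfng, but the place of Eogt among these 3 depended on the layer. In ULAs Eogt was the highest (125.8, against 61.7 for Lfng and 40.2 for Rfng), and in DLAs it was the lowest (41.8, against 67.1 and 49.4), each time in 3 of 3 brains and with no overlap. Notch1 followed at 7.71 RPKM, Notch2 at 4.09, Pofut1 at 4.00, Notch3 at 2.0 and Jag1 at 1.62. Mfng and Dll1 lay at the bottom, with means of 0.033 and 0.025 RPKM. The libraries of the neighbours Lfng and Rfng, Notch2 and Pofut1, Notch3 and Jag1, and Mfng and Dll1 overlapped in range, so their order is not set by these data, whereas Rfng lay above Notch1, Notch1 above Notch2, Pofut1 above Notch3 and Jag1 above Mfng in 6 of 6 libraries with no overlap.

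**Figure D1:**
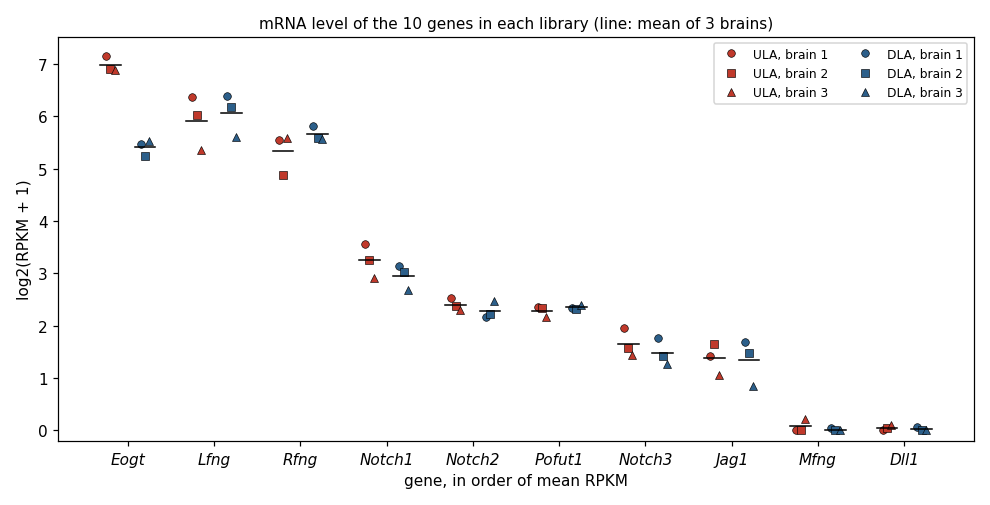
Level of the 10 genes in each of the 6 libraries, as log2(RPKM + 1) on the y axis, with genes on the x axis in order of mean RPKM; red points are ULAs, blue points DLAs, the marker shape gives the brain and each line is the mean of 3 libraries. Only for Eogt are the red and blue points apart with no overlap, while Mfng and Dll1 sit at the floor.

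Eogt, the transferase that puts GlcNAc on EGF repeats in the endoplasmic reticulum, lies at chr6:97060938-97098877 on the minus strand (mm9), in 18 exons that make an mRNA of 3205 bases. It measured 141.75, 118.67 and 117.02 RPKM in ULAs (brains 1, 2 and 3, an order kept for all values below) and 43.27, 36.94 and 45.21 RPKM in DLAs. Every ULA library was above every DLA library, and the lowest ULA value was well clear of the highest DLA value. The means were 125.8 ± 13.8 and 41.8 ± 4.32 RPKM (SD, n = 3), and the ratio of ULA to DLA was 3.28 in brain 1, 3.21 in brain 2 and 2.59 in brain 3, with a mean of 3.03 ± 0.380 (SD, n = 3). The fitted difference was 1.57 (SE 0.11) on the log2(RPKM + 1) scale, the 5th from the top of the 13999 rows with a mean of at least 1 RPKM (the 25th with a pseudocount of 0.1, the 7th without brain 2 and the 9th without brain 3), and between 2328 and 11108 reads stood behind each value. In terms of level, 3.72% of these rows had a higher mean than Eogt in ULAs and 14.5% did in DLAs.

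The same fit covered 8 of the 10 genes, and 1 of these, Eogt, was among the rows it called, as higher in ULAs; with no filter on low rows it called 0 rows, and so not Eogt either. Over all 13999 rows, 0.714% (100 rows) were called higher in ULAs, and 0.914% (128 rows) were called higher in DLAs (limma, adjusted p under 0.05). Since the layer values chose the genes, the call on Eogt is no test of it and nothing is read from that count. With quantile normalization the split of calls was 138 to 103 in place of 100 to 128. For comparison, the median log2 difference of the 8 tested genes was 0.08 and that of all rows was −0.03.

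The other enzymes that act on the fucose or GlcNAc of EGF repeats did not separate the layers as Eogt did. Pofut1, the O-fucosyltransferase that Notch needs in order to signal, lies at chr2:153067268-153095985 on the plus strand, with 7 exons and an mRNA of 5603 bases. It measured 4.10, 4.05 and 3.51 RPKM in ULAs and 4.06, 3.99 and 4.27 RPKM in DLAs. The groups overlapped, and the log2 difference was −0.07 (SE 0.14). As a result Eogt stood at 29.3 to 34.6 times the RPKM of Pofut1 in ULAs and at 9.26 to 10.7 times in DLAs. Against Ogt, which places the same sugar on proteins inside the cell, Eogt stood at 1.32 to 1.58 times in ULAs and at 0.504 to 0.627 times in DLAs, so that Eogt was above Ogt in each ULA library and below it in each DLA library.

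**Figure D2:**
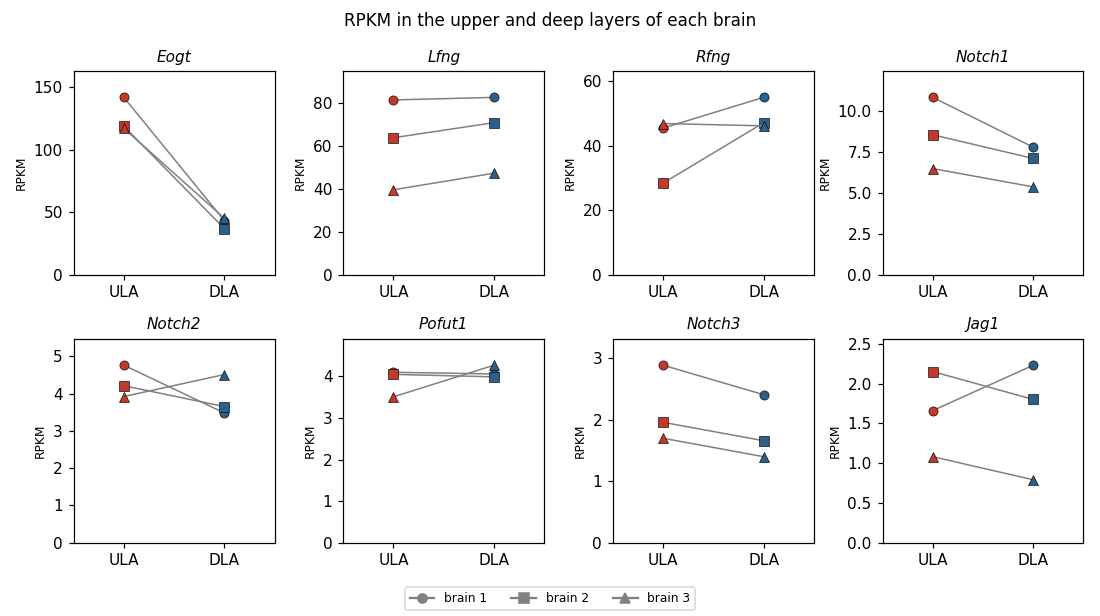
RPKM (y axis, from 0) of the 8 tested genes in the ULA and DLA library of each brain, with a grey line joining the libraries of 1 brain and the marker shape giving the brain. Eogt drops from ULA to DLA in each brain; Lfng shows 3 nearly level lines whose order by brain is the same at both ends, from 82.2 RPKM on average in brain 1 to 43.5 RPKM in brain 3.

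Lfng is the Fringe enzyme best known from the segmentation clock and lies at chr5:141083295-141091499 on the plus strand, with 8 exons and an mRNA of 2284 bases. The stretch from 250 bases before to 50 bases after its RefSeq start on GRCm38.p6, chr5:140607091-140607390 on the plus strand, is shown because of the 8 genes with such a window it alone holds the core letters that RBPJ binds, TGGGAA on either strand. The capitals mark these letters, which begin 135 bases before the start (read on the minus strand) and 108 bases before it (read on the plus strand, where a G in lower case precedes them and makes GTGGGAA).
Lfng: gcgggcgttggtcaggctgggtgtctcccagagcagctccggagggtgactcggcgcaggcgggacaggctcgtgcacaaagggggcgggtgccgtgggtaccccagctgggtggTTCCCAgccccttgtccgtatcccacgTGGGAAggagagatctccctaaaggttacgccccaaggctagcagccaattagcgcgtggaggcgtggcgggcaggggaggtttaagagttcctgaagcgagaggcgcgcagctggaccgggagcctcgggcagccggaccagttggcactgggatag
Of 32851 promoter windows of this length, 25.6% held TGGGAA and 6.38% held GTGGGAA on either strand, and among genes that Notch signalling is known to switch on, Hes5 and Hey2 each held TGGGAA at 2 places and Nrarp at 0. Eogt and Mfng had no window in the table. These counts describe the letters alone.

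In ULAs Lfng measured 81.61, 63.97 and 39.66 RPKM in the same order, and in DLAs 82.81, 71.00 and 47.42 RPKM. Both layers gave the same order, with brain 1 highest and brain 3 lowest, and the layers overlapped almost wholly. The layer means were 61.7 ± 21.1 and 67.1 ± 18.0 RPKM (SD, n = 3), the ratios of ULA to DLA were 0.986, 0.901 and 0.836, and the log2 difference was −0.14 (SE 0.10). Rfng, a Fringe with weaker activity on Notch, lies at chr11:120642059-120645518 on the minus strand, with 8 exons and an mRNA of 2118 bases. It measured 45.43, 28.37 and 46.84 RPKM in ULAs and 54.94, 47.07 and 46.12 RPKM in DLAs. Only brain 3 was slightly higher in ULAs, at a ratio of 1.02 against 0.827 and 0.603 in brains 1 and 2, and the log2 difference was −0.32 (SE 0.14). The ULA library of brain 2 was the low one among the 6. Mfng (chr15:78586313-78603875, minus strand, an mRNA of 1834 bases) was listed at 0, 0 and 0.17 RPKM in ULAs and 0.03, 0 and 0 RPKM in DLAs, which is at most 9 reads in a library. It was below the level at which a layer difference could be detected.

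Of the summed RPKM of the 3 Fringe genes, Lfng made up 45.8 to 69.3% in ULAs and 50.7 to 60.1% in DLAs. Rfng took nearly all of the rest, at 30.7 to 54.0% in ULAs and 39.9 to 49.3% in DLAs, and Mfng at most 0.196%. In the ULAs of brain 3 Rfng exceeded Lfng, and in the other 5 libraries Lfng was the higher one.

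The receptors were led by Notch1 (chr2:26313422-26359342, minus strand, 34 exons, an mRNA of 9489 bases). Its levels were 10.86, 8.57 and 6.5 RPKM in ULAs and 7.81, 7.12 and 5.38 RPKM in DLAs. Within each brain the ULA library was the higher one, at ratios of 1.39, 1.2 and 1.21, but the layers overlapped across brains. The means were 8.64 ± 2.18 and 6.77 ± 1.25 RPKM (SD, n = 3) and the log2 difference was 0.30 (SE 0.12). A further 3 rows on the opposite strand share 1069, 964 and 414 exon bases with Notch1 and measured 8.01 to 18.6 RPKM. Whether reads were counted by strand is not given in the sources used here, so reads of Notch1 and of these rows cannot be told apart.

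Notch2 (chr3:97817461-97954290, plus strand, 34 exons, an mRNA of 10506 bases) measured 4.76, 4.21 and 3.92 RPKM in ULAs and 3.48, 3.65 and 4.51 RPKM in DLAs. Brains 1 and 2 were higher in ULAs and brain 3 in DLAs, with a log2 difference of 0.12 (SE 0.15). Notch3 (chr17:32257838-32303797, minus strand, 33 exons, an mRNA of 7943 bases), the receptor best known from pericytes and vascular smooth muscle, measured 2.89, 1.96 and 1.70 RPKM in ULAs and 2.41, 1.66 and 1.4 RPKM in DLAs. The ratio was much the same in each brain, at 1.2, 1.18 and 1.21, although the brains differed more than the layers did. The log2 difference was 0.17 (SE 0.15), from 260 to 563 reads per library. Beside these values, the summed RPKM of the genes of pericytes and smooth muscle cells was 23.1, 16.1 and 16.2 in ULAs and 19.1, 16.5 and 12.01 in DLAs, also highest in brain 1 of each layer. Of these 8 genes 2 could be tested between the layers. Pdgfrb, which made up most of the sum, had a log2 difference of 0.08 (limma, adjusted p = 0.790). Rgs5, at 0.75 to 2.7 RPKM, passed at 0.77 (limma, adjusted p = 0.0455). The part of such cells in the Notch3 level was not tested. A row on the opposite strand shares 488 exon bases with Notch3 and measured 1.93 to 4.10 RPKM.

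With Notch4 included, Notch1 made up 48.2 to 55.5% of the summed receptor RPKM in ULAs and 42.6 to 52.7% in DLAs. Notch2 made up 23.9 to 29.1% and 23.2 to 35.7%, Notch3 12.6 to 14.5% and 11.1 to 16.0%, and Notch4 4.47 to 10.1% and 7.99 to 10.7%. The share of each of the 4 receptors overlapped between the layers.

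Among the ligands, Jag1 (chr2:136907187-136942256, minus strand, 26 exons, an mRNA of 5493 bases) measured 1.66, 2.15 and 1.08 RPKM in ULAs and 2.23, 1.8 and 0.790 RPKM in DLAs, from 129 to 327 reads. Brain 3 was the low one in both layers, and the log2 difference of 0.04 (SE 0.17) was smaller than its error. Dll1 (chr17:15504318-15512787, minus strand, an mRNA of 3428 bases) was listed at 0, 0.03 and 0.07 RPKM in ULAs and 0.05, 0 and 0 RPKM in DLAs, at most 7 reads in a library. Of the other ligands, Dll3, Dll4 and Jag2 also had means under 0.1 RPKM in both layers, whereas Dner, a transmembrane protein with EGF repeats that has been described as an unusual Notch ligand, was at 146.32, 129.64 and 124.23 RPKM in ULAs and 137.86, 117.31 and 126.13 RPKM in DLAs. Dner therefore stood above Jag1 in every library, with a log2 difference between layers of 0.07 (limma, adjusted p = 0.761).

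Variation between the brains was not used to choose the genes, and it could be tested across the same 13999 rows, 399 of which (2.85%) passed an F-test of the brain term in limma at an adjusted p under 0.05. This test was added after the values were seen. Of the 8 genes tested, 1 passed, Lfng (adjusted p = 0.00823), with brain means of 82.2, 67.5 and 43.5 RPKM in brains 1, 2 and 3. The order was the same in 2 of 2 layers. Without brain 3 the adjusted p for Lfng was 0.259 and Rfng passed in its place (adjusted p = 0.0416), and with no filter on low rows Lfng did not pass (adjusted p = 0.349); over all alternatives its adjusted p ranged from 0.00203 to 0.349. Notch1 and Notch3 had the same order of brains as Lfng in both layers and Jag1 was lowest in brain 3 in both, but none of these passed (adjusted p = 0.169, 0.293 and 0.207). Eogt had brain means of 92.5, 77.8 and 81.1 RPKM (adjusted p = 0.577). Beside this order, the summed RPKM of oligodendrocyte genes was 89.3, 86.6 and 175.3 in the ULAs and 174.4, 200.1 and 272.5 in the DLAs of brains 1, 2 and 3, highest in the brain where Lfng was lowest. What set the brains apart was not tested, and an animal and the handling of its tissue cannot be told apart.

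**Figure D3:**
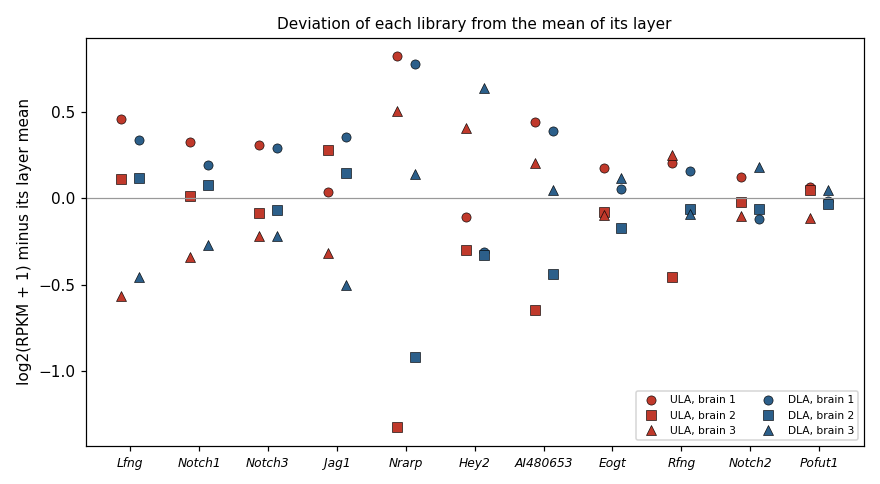
Deviation of each library's log2(RPKM + 1) from the mean of its layer (y axis) for the 8 tested genes and for Nrarp, Hey2 and AI480653, which is the older symbol of Xxylt1; red is ULA, blue is DLA, and the marker shape gives the brain. For Lfng, Notch1 and Notch3 brain 1 is highest and brain 3 lowest in both colours, whereas Nrarp and AI480653 are lowest in brain 2.

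A list of 43 other genes of the pathway, covering further receptors and ligands, the cleaving proteases, the nuclear complex, target genes and turnover, was read from the same fit. Of these 31 could be tested, and 0 passed as higher in either layer (limma, adjusted p under 0.05). An unadjusted p under 0.05 was reached by 2 genes on the ULA side and 5 on the DLA side, against 790 and 1505 of all rows. The median log2 difference was −0.04, beside −0.03 over all rows, with 13 genes on the ULA side and 18 on the DLA side. Without brain 3, Hes1 and Dtx1 passed as higher in DLAs, at log2 differences of −0.62 and −0.71 (adjusted p = 0.00510 and 0.00106). In that fit 687 of all 13999 rows were called higher in DLAs, against 128 with all 3 brains. Dtx1, a Deltex ligase that binds the inner part of Notch, had a log2 difference of −0.42 with all 3 brains (adjusted p = 0.277).

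Of the 6 target genes on that list, 5 had negative log2 differences, as did 7704 of all 13999 rows, and none passed (limma). An unadjusted p under 0.05 was reached by 5 of the 6, of which 4 were on the DLA side and 1 on the ULA side. Of all 13999 rows, 1505 reached it on the DLA side and 790 on the ULA side. The list was chosen with earlier results of these data known, so nothing is read from this count. Hes5, the most abundant gene of the list and a repressor of neuronal differentiation, measured 163.17, 196.41 and 141.45 RPKM in ULAs and 181.24, 264.46 and 168.12 RPKM in DLAs. It was lower in the ULAs of each brain while the layers overlapped, with a log2 difference of −0.28 (SE 0.10, limma, adjusted p = 0.203). A row on the opposite strand shares 433 of the 1273 bases of the Hes5 mRNA and measured 100.47 to 205.52 RPKM, so reads of the pair cannot be told apart. Hes1 measured 23.59, 27.78 and 22.52 RPKM in ULAs and 49.11, 32.18 and 26.69 RPKM in DLAs, with brain 1 of the DLAs far above the rest (log2 difference −0.49, adjusted p = 0.169). Hey1 and Heyl were likewise lower in ULAs in 3 of 3 brains, at −0.28 and −0.59 (adjusted p = 0.219 and 0.0957). Hey2 was higher in ULAs in 3 of 3 brains, at 0.32 (adjusted p = 0.297). The Hes and Hey genes thus differed among themselves in direction, and none of these layer differences passed the test. In simulated data the same fit recovered 47.5% of genes with a log2 change of 0.5, so differences of this size are often missed.

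Nrarp, which is switched on by Notch and dampens it, had the widest spread among the 11 genes whose deviations by brain are plotted. It measured 95.34, 20.79 and 76.28 RPKM in ULAs and 102.94, 31.17 and 66.12 RPKM in DLAs. Brain 2 was low in both layers, and the brain term passed (limma, adjusted p = 0.000746) while the layer term did not (log2 difference −0.16, adjusted p = 0.615). Hey2 also passed the brain term, at an adjusted p of 0.0439, and was highest in brain 3. Without brain 2 the adjusted p for the brain term was 0.0604 for Nrarp and 0.05004 for Hey2, without brain 3 it was 0.900 for Hey2, and with no filter on low rows it was 0.350 and 0.3995. Hey2 also did not pass with a correction for mRNA length (0.0678), with no intensity trend (0.0617) or with quantile normalization (0.0589), so that it was lost in 6 of 10 alternatives. The order of the brains differed between Lfng, Nrarp and Hey2. The remaining genes among the 5 most abundant of the list were Dtx3, a Deltex ligase, at a log2 difference of −0.17, and Ncstn, the nicastrin subunit of γ-secretase, at 0.14 (adjusted p = 0.476 and 0.586).

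**Figure D4:**
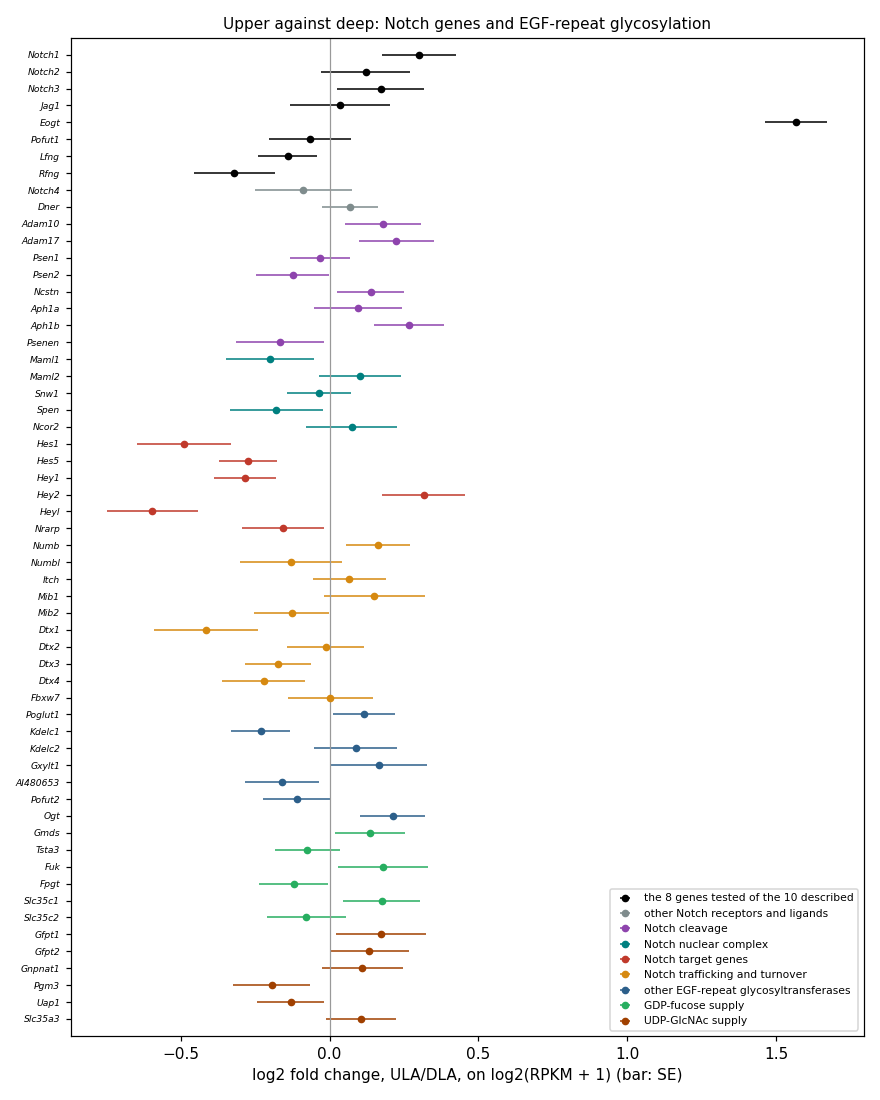
Fitted log2 difference between ULAs and DLAs on log2(RPKM + 1) (x axis, bar: SE) for the 8 tested genes of the 10 and for the tested genes of the pathway and glycosylation lists (y axis, coloured by role). Eogt lies at 1.57, and each of the other genes between −0.59 and 0.32.

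The sugar side of the pathway was followed with a list of 21 further genes. It was made up of other glycosyltransferases of EGF repeats, Pofut2, Ogt, and the genes that supply GDP-fucose and UDP-GlcNAc. GDP-fucose is the sugar donor of Pofut1, and UDP-GlcNAc that of Eogt and the Fringes. Of the 21 genes 19 could be tested and 0 passed as higher in either layer. At an unadjusted p under 0.05 there was 1 gene of the list, against 2295 of all 13999 rows. It was Kdelc1, the older symbol of the O-glucosyltransferase Poglut2, at 39.62, 39.58 and 38.86 RPKM in ULAs and 45.83, 44.65 and 48.76 RPKM in DLAs. The layers did not overlap for Kdelc1, but its log2 difference was only −0.23 (limma, adjusted p = 0.288). The median log2 difference of the list was 0.11, beside −0.03 over all rows. The list had 11 genes on the ULA side and 8 on the DLA side, against 6295 and 7704 of all rows.

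Ogt, the most abundant of these, measured 89.85, 90.05 and 87.25 RPKM in ULAs and 68.99, 73.32 and 89.41 RPKM in DLAs, with a log2 difference of 0.21 (SE 0.11, limma, adjusted p = 0.367). Slc35c2, which promotes Notch fucosylation in the secretory pathway, and Tsta3, the older symbol of the GDP-fucose synthase Gfus, had log2 differences of −0.08 and −0.07 (adjusted p = 0.814 and 0.786). Pofut2, which fucosylates thrombospondin repeats rather than EGF repeats, measured 30.1 ± 0.736 RPKM in ULAs and 32.7 ± 4.22 RPKM in DLAs (SD, n = 3), above Pofut1 in both layers. Between brains 1 gene of the list passed, AI480653, the older symbol of the xylosyltransferase Xxylt1, which measured 15.45, 6.73 and 12.95 RPKM in ULAs and 16.70, 8.99 and 12.98 RPKM in DLAs (adjusted p = 0.0183, 0.249 without brain 2 and 0.350 with no filter on low rows). Brain 2 was the low one, as for Nrarp.

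Across the 6 libraries, the 5 RefSeq rows whose log2(RPKM + 1) was most like that of Eogt included App, Sema6a, Chrdl1 and Lef1, with Pearson correlations of 0.997, 0.995, 0.993 and 0.988 among 7914 candidates of at least 5 RPKM. The 6 points fall into the 2 layers and share brains, so the correlations are a description with no p. The sizes of that difference were unlike: App, the amyloid precursor protein, had a log2 difference of 0.40 (SE 0.11), while that of Chrdl1, a secreted BMP antagonist, was 2.11 (SE 0.11), with 89.5 ± 8.27 RPKM in ULAs and 20.1 ± 3.91 RPKM in DLAs (SD, n = 3). Lef1, a transcription factor of the Wnt pathway, was at 1.86 (SE 0.14) and the semaphorin Sema6a at 0.57 (SE 0.13).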

How the data were processed

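Sorted astrocytes of 3 brains gave 1 ULA and 1 DLA library each (SMART-Seq v4, Nextera XT, single-end reads of 36 bases). The authors deposited 1 table of RPKM values, cut to 2 decimals, with exon coordinates. The submitters' processing notes name bcl2fastq 1.8.4, CASAVA 1.8.2 and the build mm9, without roles; the aligner, the counting program and the use of strand are not given in the sources used here. Table starts count from 0 and were raised by 1. RPKM carries no counting error, so reads per value were recovered from its steps (100% came out whole in rows no longer than 500 bases).

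Layers were compared with limma 3.58.1 (R 4.3.3) on log2(RPKM + 1), which understates changes of low genes, with the brain as a block, an intensity trend, 13999 rows with a mean of at least 1 RPKM, and Benjamini-Hochberg adjustment over all of them. The fit was tested on simulated data, where it recovered 47.5% of genes with a log2 change of 0.5 and 99% of those with 1. A list with 0 genes passing therefore does not show that layer differences of about 0.5 or less are absent. The study's methods pair the layers by brain, and libraries of the same brain deviated together (correlations over genes of 0.42, 0.33 and 0.34). Those of different brains were −0.20 to −0.16. Since deviations from the mean of a layer sum to 0, these negative values follow from the positive ones and are no separate evidence of pairing. Whether the 3 animals shared a litter or day is not given in the sources used here.

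The 10 genes and all lists were chosen with earlier results of these data known. Named are the 10 genes, the list genes that passed, the 5 most abundant of each list, the Hes, Hey and Nrarp targets and the 5 rows most like Eogt, 1 of which is not reported here. Other genes, such as Rgs5, Dtx1, Kdelc1, Xxylt1 and the low ligands, were named after their values were seen. Promoter sequences are from RefSeq on GRCm38.p6, with windows for 8 of the 10 genes, and no coordinate was carried between builds. A comparison of protein sequences had been planned and is not analysed here. Another 11 settings were tried.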

Additional observations from a re-analysis of the deposited data

How the results depend on the processing

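With 3 brains, differences in mRNAs of 1 to 3 RPKM rest on 129 to 563 reads, and the 2 mRNAs under 0.1 RPKM could not be compared. The log2 differences between layers of the 8 tested genes moved by less than the spread between brains in 81 of 84 recomputed values. Many of these could not have moved further, so the count is no measure of stability. The fitted difference is the same by construction with no replicate block, no filter, no intensity trend or a mean of at least 5 RPKM. Leaving out 1 of 3 brains cannot shift it beyond that spread. Those that moved were Notch1 with a correction for mRNA length (0.19) and Notch3 with that correction (0.07) and with a pseudocount of 0.1 (0.25). Eogt ranged from 1.51 to 1.67, Lfng from −0.20 to −0.06 and Rfng from −0.49 to −0.12 over the alternatives. Jag1 crossed 0 in 3 of 10 and Pofut1 in 1 of 10, within the spread between brains. Notch2, at 0.12 in the main fit, ranged from 0.0003 without brain 1 to 0.26 without brain 3.

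The numbers of rows called higher in ULAs and in DLAs were 100 and 128 with the pairing by brain and 23 and 18 with no replicate block. They were 0 and 0 with no filter on low RPKM and 65 and 79 with no intensity trend, and 77 were called higher in DLAs with a correction for mRNA length. Leaving out 1 brain gave 104 to 426 in ULAs and 126 to 687 in DLAs, with both highest numbers without brain 3. From the pathway list, 0 to 2 genes passed as higher in DLAs when 1 brain was left out, and from the glycosylation list 0 passed in either direction in all 11 alternatives. The brain test, added after the values were seen, called 399 rows and 1 of the 8 genes; with no filter on low RPKM it called 0 rows and 0 of the 8, and leaving out 1 brain gave 290 to 691 rows and 1 to 1 of the 8. The cause of these changes was not tested.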
